A study of Mus musculus with 6 samples.

Results

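The Ms4a genes Ms4a4b, Ms4a4c, Ms4a4d, Ms4a6b, Ms4a6c and Ms4a6d are neighbours on mouse chromosome 19, and their transcripts were followed here in Tregs, regulatory CD4+ T cells defined by Foxp3 that hold immune responses in check. The 6 genes, of 37187 in the count table and 13626 tested, were chosen by symbol as the cluster without the B cell gene Ms4a1, with KO-against-WT values of these same libraries already known. Those known values were a lower Ms4a4c in KO and little change in its neighbours, so the KO-against-WT values of the 6 genes are given below as a description, without a test. The libraries were made from cells sorted as CD4+CD25+GITR+ from lymph nodes draining a B16.F10 melanoma, a transplantable tumour line, on day 14 after 300000 tumour cells were placed under the skin. The KO group was 3 libraries (replicates 4, 5 and 6) from il33-/- mice in a C57BL6 background, which lack the alarmin cytokine IL-33. The WT group was 3 libraries (replicates 1, 2 and 3) from C57BL6 mice, and every mouse of both groups carried the tumour. The mice's age, the part of Il33 deleted and the number of animals behind a library are not given in the sources at hand, so a p-value reflects only how these libraries spread, which may be technical.

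MS4A proteins pass through the cell membrane several times, with both ends inside the cell, and tend to sit beside receptors. The best known is CD20, the B cell protein encoded by Ms4a1. In mouse T cells the protein of Ms4a4b binds GITR, the receptor used in this sort, and alters how T cells respond to antigen. Ms4a6b is another T cell member, Ms4a6c and Ms4a6d are best known from monocytes and macrophages, and Ms4a4c is counted among mouse transcripts induced by interferon.

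The label held in the data, with Treg and T cell markers high in every library. Foxp3, the defining Treg transcription factor, had 857, 789.7 and 849 CPM (counts scaled to a common library size) in the KO libraries and 729.8, 803 and 719 CPM in the WT libraries. The Treg markers, 6 genes, summed to 4213 to 4505 CPM in KO and 3515 to 4079 CPM in WT, ranges that did not overlap. Of them Ctla4, an inhibitory receptor of Tregs, rose in KO (957 ± 46.6 CPM in KO and 661 ± 74.5 CPM in WT, SD, n = 3 each; log2 fold change 0.53, SE 0.08, edgeR adjusted p = 0.00220), and the other 5 did not pass. Ctla4 itself added 909 to 1002 CPM to the sum in KO and 579 to 724 CPM in WT. The groups overlapped for Foxp3, Il2ra, Ikzf2 and Cd4 (log2 fold changes 0.15, 0.16, 0.22 and -0.01) and were apart for Tnfrsf18 (0.19). The sum therefore does not show every Treg marker higher in KO. Of the 6 markers 16.7% were called in edgeR, beside 6.50% of all tested genes. The groups were apart for 26.3% of all tested genes, so nothing is read from these counts. The Ctla4 call was lost with B cell marker signal as a covariate, at 0.32. The part of this in the results below was not tested. Total counts ran from 18071928 to 21165063 per library. Il33 had 3, 8 and 2 counts in the KO libraries and 7, 0 and 9 counts in the WT libraries, too few to check the genotype. The count of 0 allows up to 0.156 CPM in that library, for counting error only.

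On GRCm38, with the GENCODE M21 annotation, Ms4a4c (ENSMUSG00000024675) lies at chr19:11404770-11427246 and Ms4a4b (ENSMUSG00000056290) at chr19:11443553-11467055. Ms4a6c (ENSMUSG00000079419) follows at chr19:11469366-11482192, Ms4a6b (ENSMUSG00000024677) at chr19:11516512-11531256 and Ms4a4d (ENSMUSG00000024678) at chr19:11536801-11558467, all on the plus strand. Ms4a6d (ENSMUSG00000024679), at chr19:11586604-11604849, is the only member on the minus strand. The 6 genes span 200.1 kb. Il33, the deleted gene, is on the same chromosome, 18.3 Mb beyond the last of them.

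RefSeq promoter windows on GRCm38.p6, from 250 bases before to 50 after the start, were at hand for 5 members. They are shown because neighbours with closely related sequence differed in level and in KO-against-WT change. Capitals mark every match, on either strand, to the interferon-response core (GAAANNGAA), the ETS core (GGAA) and the TCF/LEF core (CTTTG); each window is on the plus strand, and a capital TTCC or CAAAG is a core on the minus strand. The first is Ms4a4c at chr19:11407411-11407710, whose RefSeq start lies inside the longer gene drawn by GENCODE. Then come Ms4a4b at chr19:11443308-11443607, Ms4a6c at chr19:11469118-11469417, Ms4a6b at chr19:11518309-11518608 and Ms4a4d at chr19:11536544-11536843. The Ms4a6b window, like that of Ms4a4c, lies wholly inside its longer GENCODE gene.
Ms4a4c: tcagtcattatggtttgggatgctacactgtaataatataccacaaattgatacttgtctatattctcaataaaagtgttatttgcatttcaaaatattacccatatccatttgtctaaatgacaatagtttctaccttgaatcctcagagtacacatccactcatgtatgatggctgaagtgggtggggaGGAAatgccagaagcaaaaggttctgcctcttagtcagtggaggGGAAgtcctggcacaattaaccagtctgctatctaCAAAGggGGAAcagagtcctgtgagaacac
Ms4a4b: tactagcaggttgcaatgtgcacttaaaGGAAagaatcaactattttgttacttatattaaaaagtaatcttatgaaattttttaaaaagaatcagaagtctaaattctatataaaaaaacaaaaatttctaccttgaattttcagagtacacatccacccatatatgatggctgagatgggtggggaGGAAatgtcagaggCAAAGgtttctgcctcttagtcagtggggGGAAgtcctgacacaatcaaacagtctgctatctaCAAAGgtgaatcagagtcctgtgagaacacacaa
Ms4a6c: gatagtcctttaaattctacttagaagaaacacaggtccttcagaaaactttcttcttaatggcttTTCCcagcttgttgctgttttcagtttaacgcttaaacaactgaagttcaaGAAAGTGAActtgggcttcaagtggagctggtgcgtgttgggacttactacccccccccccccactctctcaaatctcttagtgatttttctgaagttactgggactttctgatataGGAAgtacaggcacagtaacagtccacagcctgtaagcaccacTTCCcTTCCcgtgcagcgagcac
Ms4a6b: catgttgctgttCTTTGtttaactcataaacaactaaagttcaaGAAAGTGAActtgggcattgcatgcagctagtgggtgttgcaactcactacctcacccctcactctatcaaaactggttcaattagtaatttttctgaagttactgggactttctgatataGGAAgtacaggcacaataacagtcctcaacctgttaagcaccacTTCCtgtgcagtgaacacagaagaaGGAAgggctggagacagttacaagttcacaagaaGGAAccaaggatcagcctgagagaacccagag
Ms4a4d: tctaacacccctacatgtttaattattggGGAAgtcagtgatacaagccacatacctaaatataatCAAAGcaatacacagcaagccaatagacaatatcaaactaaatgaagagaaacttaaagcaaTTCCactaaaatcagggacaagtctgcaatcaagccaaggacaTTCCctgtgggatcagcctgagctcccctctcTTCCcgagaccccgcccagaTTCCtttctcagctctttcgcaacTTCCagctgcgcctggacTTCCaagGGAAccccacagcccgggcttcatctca

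The interferon-response core occurred once each in the windows of Ms4a6b and Ms4a6c, as the same 9 letters, GAAAGTGAA. It began 206 bases before the start in Ms4a6b and 133 before it in Ms4a6c. These letters were in none of the other 3 windows, and 8.56% of 32851 RefSeq windows held the core. The GAS motif (TTCNNNGAA), the site read by STAT factors, was in none of the 5 windows and in 8.30% of all windows. The ETS core, common everywhere, was in 96.0% of all windows, and 53.9% held the TCF/LEF core. The Ms4a4c and Ms4a4b windows shared 230 of 300 bases (76.7%), the Ms4a6c and Ms4a6b windows 192 bases (64.0%), and the other pairs 52.0% to 57.7%. A match in a window describes its letters and no binding.

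The coding sequences fell into the same subfamilies as the names. Within the Ms4a4 genes identity was 91.8% for Ms4a4b and Ms4a4c, 87.9% for Ms4a4c and Ms4a4d, and 85.7% for Ms4a4b and Ms4a4d. Within the Ms4a6 genes it was 86.3% for Ms4a6b and Ms4a6c, 81.8% for Ms4a6b and Ms4a6d, and 79.7% for Ms4a6c and Ms4a6d. Between the subfamilies it was 59.8% to 64.0%. Reads from such close copies can be assigned to the wrong gene: 8.19% of the 50-base stretches of the Ms4a4c transcripts also occurred in those of Ms4a4b or Ms4a4d. For Ms4a6c the share was 51.4%, mostly with the antisense transcript BE692007. How counting used strand is not given, so reads of the stretches that Ms4a6c shares with BE692007 cannot be told apart.

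**Figure D1:**
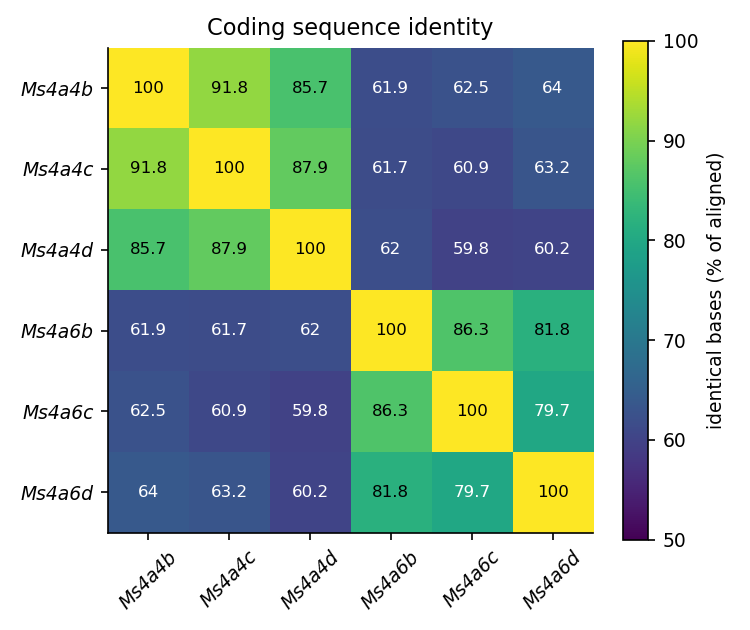
Identity of the coding sequences of the 6 Ms4a genes, as the percentage of aligned bases that match (colour and number in each cell, GENCODE M21). The Ms4a4 genes share 85.7% to 91.8% with each other, the Ms4a6 genes 79.7% to 86.3%, and pairs across the subfamilies 59.8% to 64.0%.

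By level, Ms4a6b and Ms4a4b stood far above the rest. In deposited FPKM, which is per length, Ms4a6b had 193, 196.5 and 183 in the KO libraries and 177, 199 and 185 in the WT libraries. Ms4a4b had 118, 115.0 and 124 FPKM in the KO libraries and 122, 128 and 116 FPKM in the WT libraries. The deposited FPKM imply a length of 5294 bases for Ms4a4b, against 8780 bases of GENCODE exon. Per kb of GENCODE exon the mean over all libraries was 189.8 CPM for Ms4a6b and 72.8 CPM for Ms4a4b, the same order. These T cell members ranked 79 and 154 among the 13626 tested genes by mean CPM. The ranges of the KO and WT libraries overlapped for both.

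Ms4a6c, the monocyte-linked gene next to Ms4a4b, followed with 27.9, 27.5 and 27.6 FPKM in the KO libraries and 28.2, 26.7 and 29.7 FPKM in the WT libraries, and these ranges overlapped. Ms4a4c had 16.0, 14.2 and 14.1 FPKM in the KO libraries and 32.9, 25.6 and 27.8 FPKM in the WT libraries. Every KO library was below every WT library. Ms4a6d, known from macrophages, had 1.37, 1.59 and 1.25 FPKM in the KO libraries and 1.55, 2.004 and 1.40 FPKM in the WT libraries. Ms4a4d had 1.35, 0.784 and 0.934 FPKM in the KO libraries and 1.09, 0.789 and 1.06 FPKM in the WT libraries. Both of these low members overlapped between the groups and rested on few reads, 44 to 67 a library for Ms4a6d and 23 to 43 for Ms4a4d.

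**Figure D2:**
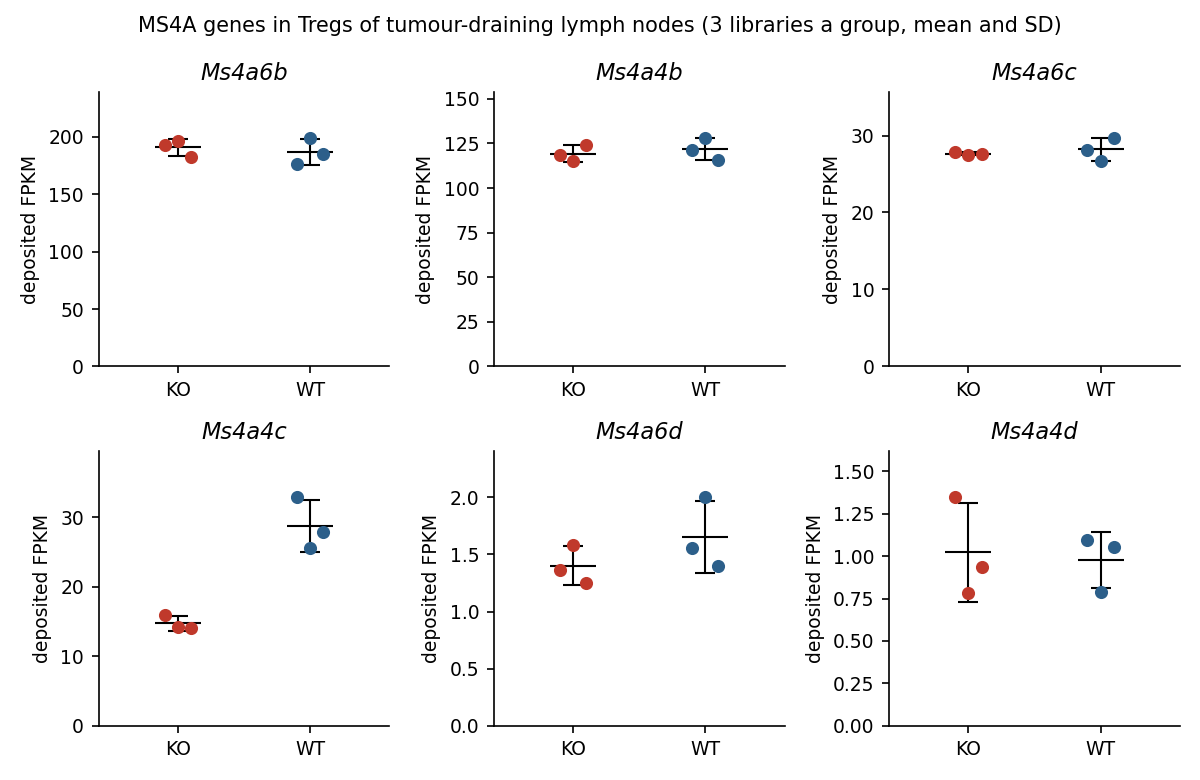
Deposited FPKM of each Ms4a gene in each library (points; KO red, WT blue), with the mean and SD of 3 libraries a group, each panel on its own axis from 0. Ms4a4c is the panel in which the groups are apart, 14.1 to 16.0 FPKM in KO and 25.6 to 32.9 FPKM in WT.

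Over all 6 libraries the order of the mean FPKM was Ms4a6b, Ms4a4b, Ms4a6c, Ms4a4c, Ms4a6d and Ms4a4d. The ranges of neighbours in this order did not overlap except at Ms4a6c over Ms4a4c, where the lowest Ms4a6c value (26.7 FPKM) was under the highest Ms4a4c value (32.9 FPKM), and at Ms4a6d over Ms4a4d (1.25 and 1.35 FPKM, in different libraries). Ms4a6d was above Ms4a4d within every library. Ms4a4c was above Ms4a6c in WT replicate 1 in deposited FPKM, and in all 3 WT libraries when CPM was divided by the GENCODE exon length. Ms4a6c was above Ms4a4c in all 3 KO libraries on both scales. The scales differ in the length of Ms4a6c, 1851 bases implied by the deposited FPKM and 2050 in GENCODE.

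Between KO and WT, the summed transcript of the cluster hardly moved, while its Ms4a4c share was lower in KO. The 6 genes summed to 1575.3 ± 6.06 CPM in KO and 1594 ± 67.3 CPM in WT (SD, n = 3 each). Ms4a4c made up 1.77%, 1.58% and 1.59% of that sum in the KO libraries and 3.73%, 2.68% and 3.15% in the WT libraries. Set against Ms4a4b, its nearest relative in coding sequence, Ms4a4c reached 4.47%, 4.09% and 3.77% of the Ms4a4b CPM in the KO libraries and 9%, 6.63% and 7.97% in the WT libraries. Both shares left the groups apart. Ms4a4b and the other members of the sum were already known to change little, so the shares restate the lower Ms4a4c on another scale. Ms4a6b held 51.2% to 56.2% of the sum and Ms4a4b 38.7% to 42.2% over all 6 libraries.

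In counts, Ms4a4c had 589, 522 and 525 reads in the KO libraries and 1220, 863 and 885 reads in the WT libraries. That is 25.98 ± 1.82 CPM in KO and 50.6 ± 6.67 CPM in WT (SD, n = 3 each). The KO level was 0.513 of the WT level, a log2 fold change of -0.96 (SE 0.10). In sorted bulk RNA, fewer cells carrying the transcript and less of it per cell cannot be told apart. The other members had log2 fold changes no larger than their SE: -0.03 (SE 0.06) for Ms4a4b, 0.03 (SE 0.06) for Ms4a6b, -0.02 (SE 0.06) for Ms4a6c, -0.23 (SE 0.24) for Ms4a6d and 0.06 (SE 0.31) for Ms4a4d.

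Of the 6 members, 1 passed a Benjamini-Hochberg adjusted threshold of 0.05 in edgeR's quasi-likelihood fit over all genes, Ms4a4c, lower in KO, and 0 passed in the higher direction, also at an unadjusted p under 0.05, in DESeq2 and in limma-voom. Among all tested genes 6.50% passed in either direction, 2.83% lower and 3.68% higher in KO. Ms4a4c was also the 1 member of 6 whose groups did not overlap in CPM, against 26.3% of all tested genes. The members had a median log2 fold change of -0.03, beside 0.00 for all tested genes. Since the members were picked with these values known, nothing is read from the counts.

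The lower Ms4a4c stood beside a lower signal of other cell types, whose part in it was not tested beyond the values given here. All 18 B cell markers had negative log2 fold changes (median -1.92). Of these markers 1 passed the threshold in edgeR (5.56%, beside 6.50% of all tested genes), 15 in DESeq2 and 7 in limma-voom. Over all genes DESeq2 called 1168 and limma-voom 700. At an unadjusted edgeR p under 0.05 there were 17 of the markers, a count without a share over all genes here. None was at 0 in any library. Their CPM summed to 1376, 1705 and 1371 in the KO libraries and 3742, 2271 and 3077 in the WT libraries. In WT replicate 2 the marker Cd72 alone made up 558 CPM, against 41.2 to 86.1 CPM in the other libraries. Without Cd72 the sums were 1331, 1662 and 1330.0 CPM in the KO libraries and 3656, 1713 and 3004 CPM in the WT libraries. Ighm alone made up 924 to 1118 CPM of the sum in KO and 1061 to 1447 CPM in WT. On the mean log2 level of the 18 markers, centred over the libraries, the KO libraries were at -0.80, -0.44 and -1.14 and the WT libraries at 1.38, -0.04 and 1.04. In WT replicate 2, the WT library with the least B cell signal, 4 of the 18 markers were at or below the highest KO library. The log2 fold change of Ms4a4c was -0.79 with WT replicates 1 and 3 left out and -0.65 with that mean marker level as a covariate, where it no longer passed the threshold. Both of these settings were chosen after seeing the data. Under 15 other settings (tools, filters, scalings and left-out libraries) it was -1.04 to -0.85. The mean marker level was lower in every KO library than in every WT library, so this covariate and the genotype cannot be fully told apart. With the covariate the SE for Ms4a4c rose from 0.10 to 0.16, and calls over all genes fell from 886 to 46. A call lost under it, here or elsewhere, is therefore not credited to B cell signal.

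The 14 dendritic cell markers summed to 93.9 to 107.5 CPM in KO and 138.7 to 140.6 CPM in WT, of which Bst2, also an interferon response gene, made up 57.3 to 83.5 CPM a library. Of the 10 of them tested, 3 fell in KO and 0 rose (30.0% called, beside 6.50% of all tested genes). These were the chemokine gene Ccl22 (log2 fold change -1.22, edgeR adjusted p = 0.0124), the transcription factor gene Tcf4 (-0.92, edgeR adjusted p = 0.0278) and Siglech, a plasmacytoid dendritic cell receptor (-1.27, edgeR adjusted p = 0.0313). Flt3, the growth factor receptor of dendritic cells, had 1.19, 1.43 and 0.381 CPM in the KO libraries and 4.03, 1.82 and 4.37 CPM in the WT libraries and did not pass. The cDC1 marker Clec9a had at most 0.166 CPM in any library and 0 counts in 2 of them. Of the rest tested, Itgax, Zbtb46 and Xcr1 had log2 fold changes of 0.09, 0.18 and 0.28, and Fscn1, Ccr9 and Bst2 of -1.15, -0.45 and -0.13. None of these passed. With the B cell marker level as a covariate, the log2 fold change was -0.32 for Ccl22, -0.05 for Tcf4 and -2.02 for Siglech. Flt3, Clec9a and the genes that did not pass were named after their values were seen. The monocyte and macrophage markers, 20 genes, summed to 345 to 435 CPM in KO and 402 to 432 CPM in WT, most of it from Ctsb and Ccr2, which T cells can also express. Of 16 tested, 1 rose and 1 fell (12.5% called), and Cd14 had at most 0.237 CPM in any library, with 0 counts in 3 of them. The NK cell markers summed to 27.3 to 31.0 CPM in KO and 31.0 to 37.3 CPM in WT, with 1 of 7 tested lower in KO (14.3% called). The pair Cd8a and Cd8b1 summed to 22.3 to 31.0 CPM in KO and 32.7 to 36.3 CPM in WT, and neither passed the threshold. At an unadjusted edgeR p under 0.05, 6 dendritic, 3 NK and 1 of the CD8 genes were lower and 0 were higher, and DESeq2 and limma-voom called 0 of these genes higher. Every edgeR call in these marker lists, B cell markers included, was lost without KO replicate 6. The dendritic, NK and CD8 sums were lower in KO, as Ms4a4c was, and their part in its change was not tested.

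**Figure D3:**
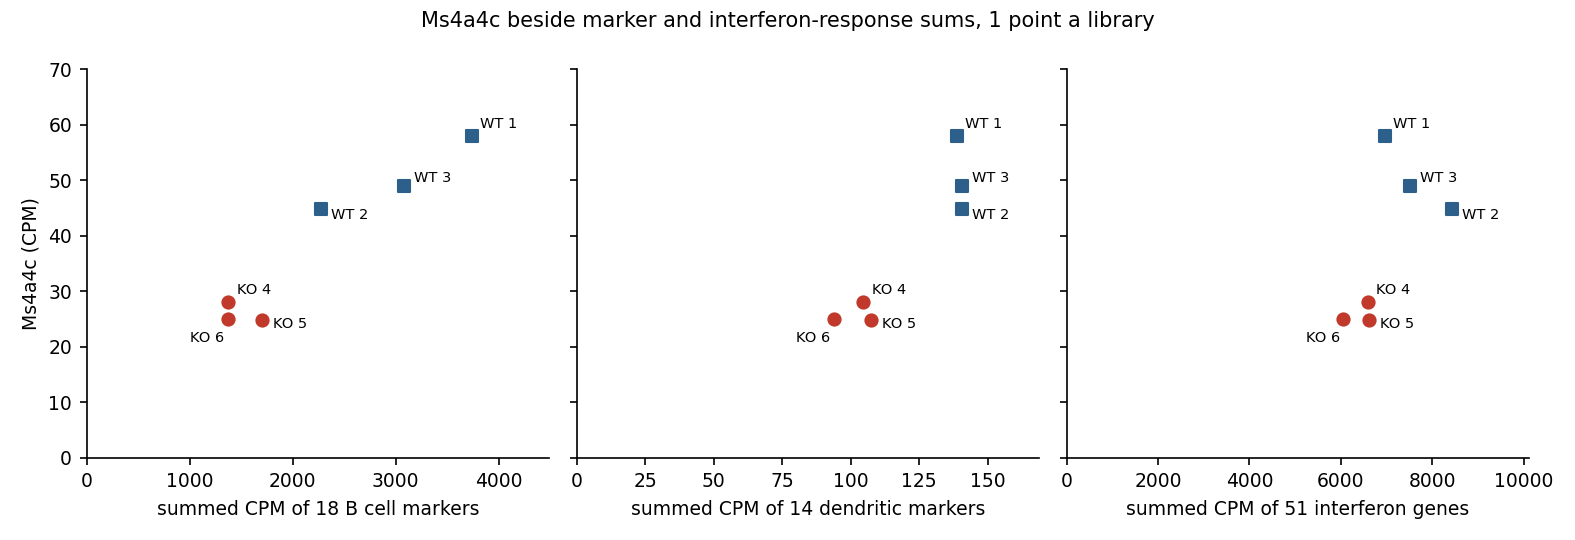
Ms4a4c CPM (vertical axis) against the summed CPM of 18 B cell markers, 14 dendritic cell markers and 51 type I interferon response genes, with 1 point a library (KO red circles, WT blue squares). Ms4a4c is highest in WT replicate 1, where the B cell sum is highest. The interferon sum is highest in WT replicate 2, the WT library with the least Ms4a4c. Among the KO libraries, the B cell and interferon sums are both highest in KO replicate 5. Ms4a4c is lowest there, at 24.87 CPM, beside 24.99 CPM in KO replicate 6. Whether Ms4a4c follows any of these sums within a group was not tested.

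Of the wider family, no gene passed the edgeR threshold in either direction among 3 tested. With 6.50% of all tested genes called, nothing is read from that count. Ms4a1, the CD20 gene, had 29.4, 45.9 and 21.9 CPM in the KO libraries and 171, 51.5 and 142 CPM in the WT libraries. Its groups did not overlap, as in 26.3% of all tested genes. KO replicate 5 was the highest KO library and WT replicate 2 the lowest WT library. Its log2 fold change was -1.91 (SE 0.60), with an adjusted p of 0.176 in edgeR, 0.0161 in DESeq2 and 0.0494 in limma-voom. At an unadjusted edgeR p under 0.05 it was the 1 relative lower in KO, and 0 were higher. Tmem176a and Tmem176b, more distant relatives, had log2 fold changes of -0.16 (SE 0.14, edgeR adjusted p = 0.585) and 0.08 (SE 0.15, edgeR adjusted p = 0.815). The rest were at or near 0. The macrophage member Ms4a7 had 3, 3 and 2 counts in the KO libraries and 4, 1 and 7 counts in the WT libraries. Ms4a2, which encodes the beta chain of the mast cell IgE receptor, had 0 counts in every library, as did Ms4a5, Ms4a10 and Ms4a18, which allows at most 0.142 to 0.166 CPM a library.

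Genes around the cluster were compared to see whether Ms4a4c moved with its surroundings. Within 1 Mb on either side, 29 other genes were tested, of which 1 rose and 1 fell in KO. Mpeg1, the macrophage pore-forming protein perforin-2, fell to 4.89 ± 0.384 CPM in KO, against 9.56 ± 1.77 CPM in WT (SD, n = 3 each), with -0.97 as the log2 fold change (SE 0.17) and 0.00440 as the edgeR adjusted p. Dtx4, a ubiquitin ligase of the Deltex family, rose to 10.4 ± 2.51 CPM in KO, against 6.23 ± 0.626 CPM in WT (log2 fold change 0.73, SE 0.17, edgeR adjusted p = 0.0252). Both lie over 1 Mb from the start of Ms4a4c, beside each other. The 2 calls were 6.90% of the genes tested there, close to the 6.50% called among all tested genes, and the median log2 fold change was -0.05. The Dtx4 call was lost without KO replicate 6, WT replicate 1 or WT replicate 3 (edgeR adjusted p up to 0.116). Both calls were lost with the B cell covariate and without WT replicates 1 and 3, where the log2 fold change was -0.51 and -0.67 for Mpeg1 and 0.66 and 0.90 for Dtx4.

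**Figure D4:**
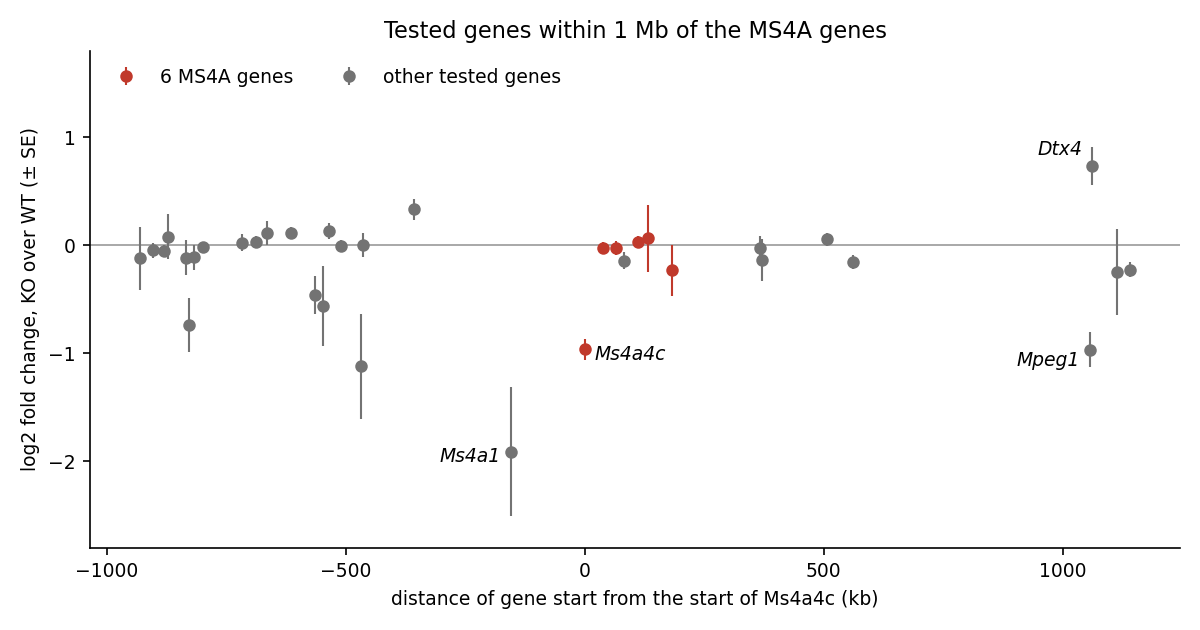
Log2 fold change, KO over WT (points, with SE), of the tested genes within 1 Mb of the cluster, by distance of the gene start from the start of Ms4a4c in kb, with the 6 Ms4a genes in red and 29 others in grey. Ms4a4c, at -0.96, stands below the other members, which lie between -0.23 and 0.06. Ms4a1, the nearest tested gene on the other side (-155.1 kb), is lower than Ms4a4c, at -1.91 (SE 0.60).

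GITR and the calcium entry genes were described because the Ms4a4b protein is known to bind GITR. Tnfrsf18, which encodes GITR, had 110, 105 and 111 CPM in the KO libraries and 91.9, 99.3 and 95.0 CPM in the WT libraries. The groups were apart, as they were for 26.3% of all tested genes, but the log2 fold change of 0.19 (SE 0.06) did not pass (edgeR adjusted p = 0.0743). The log2 fold change was 0.15 for Foxp3 (SE 0.06, edgeR adjusted p = 0.160) and, for Orai1, the pore of the store-operated calcium channel, 0.02 (SE 0.06, edgeR adjusted p = 0.867). Of the 20 tested genes on the list, 1 rose, 1 fell and 18 did not pass, with a median log2 fold change of -0.01. That is 10% called, beside 6.50% of all tested genes. The potassium channel gene Kcnn4, whose current sustains calcium entry, rose (log2 fold change 0.22, SE 0.06, edgeR adjusted p = 0.0473). Orai2, which encodes another channel subunit, fell (-0.38 on the log2 scale, SE 0.07, edgeR adjusted p = 0.00915). The Kcnn4 call was lost without any of KO replicates 4, 5 and 6 or WT replicates 1 and 3 (edgeR adjusted p up to 0.186). The Orai2 call was lost without KO replicate 5 (edgeR adjusted p = 0.0502). The list held 2 falls without KO replicate 4 and 3 without WT replicate 2. Both calls were lost under the B cell covariate and without WT replicates 1 and 3, with log2 fold changes of 0.07 and 0.17 for Kcnn4 and -0.27 and -0.32 for Orai2.

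Type I interferon response genes were set beside Ms4a4c because it is known as an interferon-induced transcript. Of 51 tested, 0 rose, 16 fell in KO and 35 did not pass in edgeR, with a median log2 fold change of -0.32. That is 31.4% called, beside 6.50% of all tested genes. DESeq2 gave 24 falls, limma-voom 16, and none of these tools a rise. Over all genes DESeq2 called 622 lower and 546 higher, and limma-voom 303 lower and 397 higher. At an unadjusted edgeR p under 0.05, 29 genes of the list were lower and 0 higher. The share of all genes at that unadjusted p is not given here, and 6.50% is no background for it. The smallest p-values were those of Ifi208, of the interferon-inducible p200 family (-3.07, SE 0.13, edgeR adjusted p = 2.711e-05), and Ifit1bl1, a relative of the Ifit genes (-0.53, SE 0.07, edgeR adjusted p = 0.000507). Then came Ifi209, also of the p200 family (-0.46, SE 0.06, edgeR adjusted p = 0.000545), and the antiviral gene Samd9l (-0.44, SE 0.06, edgeR adjusted p = 0.00164). The list was summed at 6591, 6621 and 6057 CPM in the KO libraries and 6969, 8434 and 7507 CPM in the WT libraries. Within WT the library with the highest sum, WT replicate 2, had the least Ms4a4c. The number of falls was 7 without KO replicate 6, 7 without WT replicate 3 and 3 under the B cell covariate. Under that covariate the log2 fold changes were -3.49 for Ifi208, -0.62 for Ifit1bl1, -0.50 for Ifi209 and -0.45 for Samd9l.

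Likeness of pattern was measured as the root mean square distance between log2 CPM profiles, each centred on its mean over the 6 libraries, among 8647 tested genes of at least 10 CPM. The nearest genes to Ms4a6b were Stam2 (0.0126), Erap1 (0.0174) and Atad1 (0.0187), where the median gene was at 0.109. The nearest to Ms4a4b were Ppm1j (0.0150), Apbb1ip (0.0161) and R3hdm4 (0.0171), with the median gene at 0.105. These are flat profiles, and many genes lie close to them. Among the members, Ms4a4b and Ms4a6b were 0.0812 apart and Ms4a4c was 0.444 to 0.515 from the others. For Ms4a4c, added after seeing the data, the nearest genes were Filip1l (0.104), Pxk (0.143) and Pgap1 (0.149), with the median gene at 0.493. Their log2 fold changes were -0.84 (edgeR adjusted p = 0.0115), -0.73 (edgeR adjusted p = 0.0454) and -0.88 (edgeR adjusted p = 0.0200). Genes picked for nearness to a profile that is lower in KO are bound to be lower in KO too. Nothing is therefore read from these falls or their p-values. All 3 calls were lost under the B cell covariate (-0.47, -0.18 and -0.18) and without KO replicate 4, KO replicate 6 or WT replicate 3, and those of Pxk and Pgap1 also without KO replicate 5. That of Pgap1 was lost as well without WT replicates 1 and 3.

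The spread of each member over all ways of fitting is shown in the plot of fold changes by setting. The ranges cover 17 settings other than the edgeR fit of all 6 libraries. Ms4a4b ranged from -0.17 to 0.01, Ms4a6b from -0.07 to 0.08 and Ms4a6c from -0.06 to 0.07. The members with few reads ranged more widely, Ms4a6d from -0.51 to -0.07 and Ms4a4d from -0.18 to 0.42. Ms4a4c ranged from -1.04 to -0.65, below 0 in all of them.

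**Figure D5:**
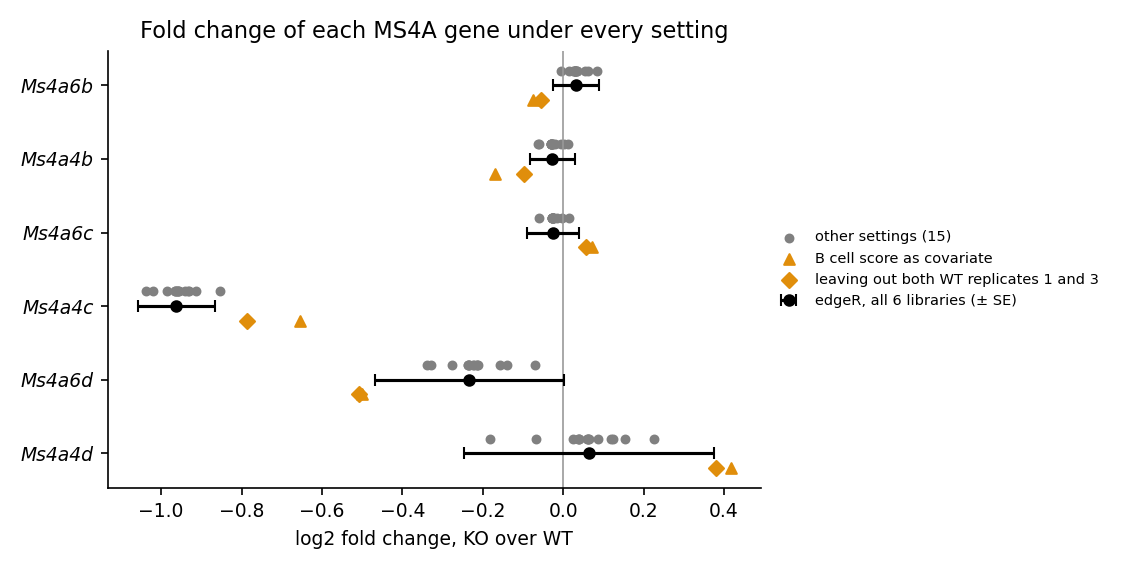
Log2 fold change, KO over WT, of each Ms4a gene in the edgeR fit of all 6 libraries (black, with SE), under 15 other settings (grey) and under both settings chosen after seeing the data (orange). Ms4a4c keeps a negative value throughout, from -1.04 to -0.65, and the other members lie around 0 or, for Ms4a6d, between -0.51 and -0.07.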

How the data were processed

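RNA was sequenced from 6 libraries of sorted Tregs, 3 KO and 3 WT. The authors deposited 3 tables: raw counts by Ensembl ID, and normalized counts (a signal) and FPKM by symbol. The deposited signal was the raw count over a library-wide factor in 99.9% or more of genes with 50 or more counts, within 1e-06, and the deposited FPKM equalled that signal divided by 1 constant per gene. Per the submitters' processing notes, software included bcl2fastq, STAR 2.4.2a and DESeq2, and the build was GRCm38; how reads were counted, with what strand setting and annotation, is not given in the sources used. Positions came from GENCODE M21 by gene ID, which matched 35412 of 37187 IDs; unmatched IDs held 0.260% to 0.308% of counts and stayed in.

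Counts were tested with edgeR 4.0.16 (R 4.3.3; filterByExpr, TMM, glmQLFit with robust estimation, glmQLFTest, two-sided, Benjamini-Hochberg threshold 0.05); CPM use TMM factors. It was tested on simulated data. Pairs of libraries of a group had a chi-square of 5.16 to 14.6 per degree of freedom, above sampling noise in each. The labels number the KO libraries 4 to 6 and the WT libraries 1 to 3, so nothing pairs them.

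Members and lists were chosen with earlier results of these data known. Named were the members, tested relatives, up to 4 called genes a list with the smallest p (otherwise up to 2), called neighbours, Tnfrsf18, Foxp3, Orai1 and the nearest patterns; 1 gene so named is not reported here. The marker, Mpeg1 and Dtx4 calls followed the same fit. Alternatives were DESeq2 1.42.0, limma 3.58.1 on voom values and on log2(FPKM + 1) and log2(FPKM + 0.1), other filters and factors, a threshold of 0.01 and dropping each library. The B cell covariate, dropping WT replicates 1 and 3, and the patterns nearest to Ms4a4c were added after seeing the data. Without those 2 libraries 1 WT library remains, assumed to vary like the KO libraries. Promoter windows came from RefSeq. Floors use 3 counts and cover counting error only. Counts at an unadjusted p are given without a share over all genes, and 6.50% is no background for them.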

Additional observations from a re-analysis of the deposited data

How the results depend on the processing

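The number of members past the threshold was 1 (Ms4a4c) and, with the B cell score as covariate, 0; since Ms4a4c was picked with its values known, nothing is read from this. No paired analysis was possible because KO libraries carry replicate numbers 4 to 6 and WT libraries 1 to 3, so the groups share none. Calls over all genes were 886 (501 higher and 385 lower in KO). They were 1645 (806 and 839) without a filter, 237 (157 and 80) on log2(FPKM + 1), 229 (154 and 75) on log2(FPKM + 0.1), 275 (177 and 98) at a threshold of 0.01, 46 (29 and 17) with the B cell score and 282 (182 and 100) without WT replicates 1 and 3. DESeq2 called 622 lower. Leaving out 1 library gave 367 to 1364 calls (239 to 626 higher, 128 to 738 lower). The cause of these moves was not tested.

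DESeq2 called 1 relative lower (Ms4a1), 4 GITR and calcium genes lower, 2 tetraspanins lower, and 2 neighbours higher and 3 lower. With the B cell score, 3 interferon genes and 1 naive T cell gene were lower. Both alternatives chosen after seeing the data left 0 calls in either direction among GITR and calcium genes, tetraspanins and neighbours, and 1 lower naive T cell gene each. Leaving out 1 library gave 0 to 1 higher and 0 to 3 lower GITR and calcium genes, 7 to 20 lower interferon genes, 1 to 5 lower naive T cell genes, 0 to 2 tetraspanins in each direction, 0 to 3 higher cell cycle genes, and 0 to 2 higher and 1 to 3 lower neighbours. The order of the members by deposited FPKM kept 4 of 6 places in WT replicate 1 alone; by CPM per exon length the same swap of Ms4a4c and Ms4a6c occurred in all 3 WT libraries, with the order of the means kept. Depth limited Ms4a4d and Ms4a6d, with at most 67 reads a library.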

Other observations

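Tetraspanins, a separate family of membrane proteins, were set beside the Ms4a genes. Of 18 tested, 2 rose and 1 fell in KO, with a median log2 fold change of -0.03. That is 16.7% called, beside 6.50% of all tested genes. Cd82 rose by 0.25 (SE 0.05, edgeR adjusted p = 0.0122) and Tspan13 by 0.22 (SE 0.06, edgeR adjusted p = 0.0448), while Tspan2 had -1.25 (SE 0.26, edgeR adjusted p = 0.0122) on the log2 scale. The Cd82 call was lost without KO replicate 5 or WT replicate 3, that of Tspan2 without KO replicate 6, WT replicate 1 or WT replicate 3, and that of Tspan13 without any library but KO replicate 4.

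Of 18 genes of naive or resting T cells, 0 rose and 4 fell in KO, with a median log2 fold change of -0.14. That is 22.2% called, beside 6.50% of all tested genes. At an unadjusted edgeR p under 0.05, 4 were higher and 7 lower, and DESeq2 and limma-voom called 0 higher and 5 and 3 lower. Among the edgeR calls were Dapl1 (-0.81, SE 0.15, edgeR adjusted p = 0.00845), Ly6c1 (-0.43, SE 0.09, edgeR adjusted p = 0.0106) and the chromatin organizer Satb1 (-0.22, SE 0.06, edgeR adjusted p = 0.0394). The list kept 1 fall without KO replicate 5, and 2 when WT replicate 1 or WT replicate 3 was dropped. Of 22 cell cycle genes, none passed the edgeR threshold in either direction, nor in DESeq2 or limma-voom, 1 was higher at an unadjusted edgeR p under 0.05, and the median log2 fold change was 0.06. The smallest p-values were those of Pcna (0.21, SE 0.07, edgeR adjusted p = 0.119) and Mcm6 (0.17, SE 0.08, edgeR adjusted p = 0.234). Without KO replicate 4, 3 of them passed, higher in KO.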
